A study of Bos taurus with 9 samples.

Results

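QPRT, NMRK2 and NAMPT are enzymes that make NAD or its direct precursors, each from a different starting molecule. Their transcripts were followed in adipose tissue and skeletal muscle of Yan yellow cattle, a Chinese breed. All probe sets annotated with exactly 1 of the 3 symbols were taken, which gave 4 of the 24016 tested probe sets, 1 for QPRT, 1 for NMRK2 and 2 for NAMPT, among 9155 named genes. The 3 genes were picked with their tissue levels already known. Their own levels and differences are therefore given as a description, without a test, and the tests below concern the other genes of NAD metabolism.

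RNA was hybridised to 9 one-colour Affymetrix bovine arrays, 3 each from abdominal fat, subcutaneous fat and the longissimus dorsi, the long muscle of the back. All animals were bulls aged 24 months and reared alike, and no treatment is described. An RNA extraction kit for lipid tissue is named for the adipose samples, and none for muscle. The labels count 9 bulls and do not tie samples to animals, and p-values therefore reflect only the spread between these samples. Values are log2 of the deposited intensity, and a value under 6 is taken as near background. Fewer cells of a type and less RNA per cell cannot be told apart in such whole-tissue samples.

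NAD carries electrons in glycolysis, the citrate cycle and fatty acid oxidation, and it is also consumed by sirtuins and ADP-ribosyltransferases. QPRT joins quinolinate, the end of the kynurenine route from tryptophan, to phosphoribosyl pyrophosphate (PRPP) to make nicotinic acid mononucleotide. In mammals the complete tryptophan route is best known from liver and kidney. NAMPT is the rate-limiting enzyme that recycles nicotinamide, the product left when NAD is consumed, and adipocytes also secrete it. NMRK2 phosphorylates nicotinamide riboside. In mice and humans it is known as the muscle form of the kinase and was first described as a muscle protein that binds β1 integrin.

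The tissues carried their defining markers. The summed intensity of 8 measured adipocyte markers was 38222.8 to 40980.2 on the fat arrays and 3637.8 to 7545.2 on the muscle arrays, and that of 9 muscle fibre markers was 3674.7 to 6803.4 in fat and 57673.0 to 67843.2 in muscle. Of these 9 muscle markers 7 were lower in adipose tissue and 2 higher. The 2 were CKM (1.46 ± 0.20, adjusted p = 0.000174) and MYH7 (0.60 ± 0.21, adjusted p = 0.0343), each by its brightest probe set. In abdominal and subcutaneous fat their means were 10.32 and 9.76 for CKM and 11.41 and 11.11 for MYH7. Both enter the fat sum, which is therefore not read as muscle fibre in the fat samples. Over all probe sets 52.6% passed between adipose tissue and muscle, 46.6% between abdominal fat and muscle, 47.0% between subcutaneous fat and muscle, and 1.31% between the depots. The 3'/5' control ratios, the only measure of RNA integrity at hand, moved with tissue. The 3'/5' ratio of the GAPDH control was 1.208 to 1.735 in fat and 0.937 to 1.012 in muscle, and that of actin was 2.235 to 8.167 in fat and 0.963 to 1.036 in muscle. Array medians lay between 5.87 and 5.92 in fat and between 5.75 and 5.79 in muscle.

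QPRT was a transcript of both fat depots. It read 9.09, 9.29 and 9.02 on the abdominal arrays, 10.10, 9.45 and 9.88 on the subcutaneous arrays, and 5.01, 4.6 and 5.51 on the muscle arrays (log2 values). Every fat array lay above every muscle array, and every muscle value was near background. The tissue means were 9.13 ± 0.14 in abdominal fat and 9.81 ± 0.33 in subcutaneous fat, against 5.04 ± 0.46 in muscle (SD, n = 3 each). On its arrays QPRT stood between the 87.6 and 94.4 percentile of probe sets in fat and between the 31.1 and 45.8 percentile in muscle.

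The mean of both depots exceeded muscle by 4.43 ± 0.21 on the log2 scale (moderated SE). Because muscle was near background, that size is not exact and the fold is a bound. On the deposited scale, with muscle values set to no less than 6, QPRT was at least 11.1-fold higher in adipose tissue than in muscle. It was at least 8.8-fold higher in abdominal and at least 14-fold higher in subcutaneous fat.

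Between the depots QPRT was lower in abdominal than in subcutaneous fat by 0.68 ± 0.24 (a log2 difference of -0.68), and the arrays of the depots did not overlap. The nearest values were 9.29 in abdominal replicate 2 and 9.45 in subcutaneous replicate 2, which is closer than the spread within subcutaneous fat. Of all probe sets, 23.6% did not overlap between the depots, and 13.9% had all abdominal arrays under all subcutaneous arrays, so this separation was common. Some markers of other cells separated the depots too, in both directions. Summed endothelial markers were 5481.2 to 6306.8 on the abdominal arrays and 3779.0 to 4161.0 on the subcutaneous arrays. Of 6 measured 1 passed, the receptor TEK (1.09 ± 0.18, adjusted p = 0.0293), where 1.5% of all named genes did. Summed neutrophil markers were 1459.5 to 4039.4 on the abdominal arrays and 706.6 to 1356.0 on the subcutaneous arrays. Summed mesothelial markers, 2 measured, were 67.1 to 223.9 in abdominal and 44.0 to 64.6 in subcutaneous fat. The 1 measured mast cell marker, KIT, was lower in abdominal fat, with 325.4 to 422.0 against 455.1 to 632.3, and did not pass (adjusted p = 0.282). Summed fibroblast markers overlapped, with 20101.0 to 27399.0 in abdominal and 26980.5 to 29509.6 in subcutaneous fat. The part of these cells in the depot difference of QPRT was not tested.

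Markers of other cells moved with the tissue contrast of QPRT. Of 8 adipocyte markers measured of 10 listed, 8 were higher in adipose tissue than in muscle at an adjusted p under 0.05. The same held for 6 of 6 measured macrophage markers, 5 of 6 endothelial markers and 4 of 5 fibroblast markers. Of all 9155 named genes, 2926 were higher. Summed macrophage markers ranged from 4784.5 to 10386.9 in fat and from 830.6 to 2140.3 in muscle, endothelial markers from 3779.0 to 6306.8 in fat and from 982.7 to 1206.5 in muscle, and fibroblast markers from 20101.0 to 29509.6 in fat and from 7664.9 to 13473.4 in muscle. Their part in the QPRT values was not tested. Of 6 liver and kidney markers 1 was higher, albumin (ALB), by 1.44 ± 0.13 (adjusted p = 1.17e-05), and 1 was lower, SLC34A1 (-0.74 ± 0.16, adjusted p = 0.00329). SLC34A1 and the kidney or liver markers UMOD, CUBN and APOA2 had means under 6 in every tissue.

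NMRK2 had the opposite distribution. It read 4.27, 5.02 and 3.78 in abdominal fat, 4.37, 4.34 and 4.34 in subcutaneous fat, and 12.61, 12.78 and 11.92 in muscle. All 6 fat values were near background, and the muscle values stood between the 98.8 and 99.6 percentile of their arrays. The means were 4.36 ± 0.63 in abdominal fat and 4.35 ± 0.02 in subcutaneous fat, against 12.44 ± 0.46 in muscle (SD, n = 3 each).

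The log2 difference of adipose tissue from muscle was -8.08 ± 0.26, a size that is not exact because fat was near background. On the deposited scale, with fat values set to no less than 6, NMRK2 was at least 86.6-fold lower in adipose tissue than in muscle. The same bound held for each depot alone. With arrays centred on the poly-A controls described below, the log2 difference was -7.18, so the bound does not carry over to that scaling. The depots differed by 0.01 ± 0.30 with overlapping arrays, at a level where the depots cannot be ordered.

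**Figure D1:**
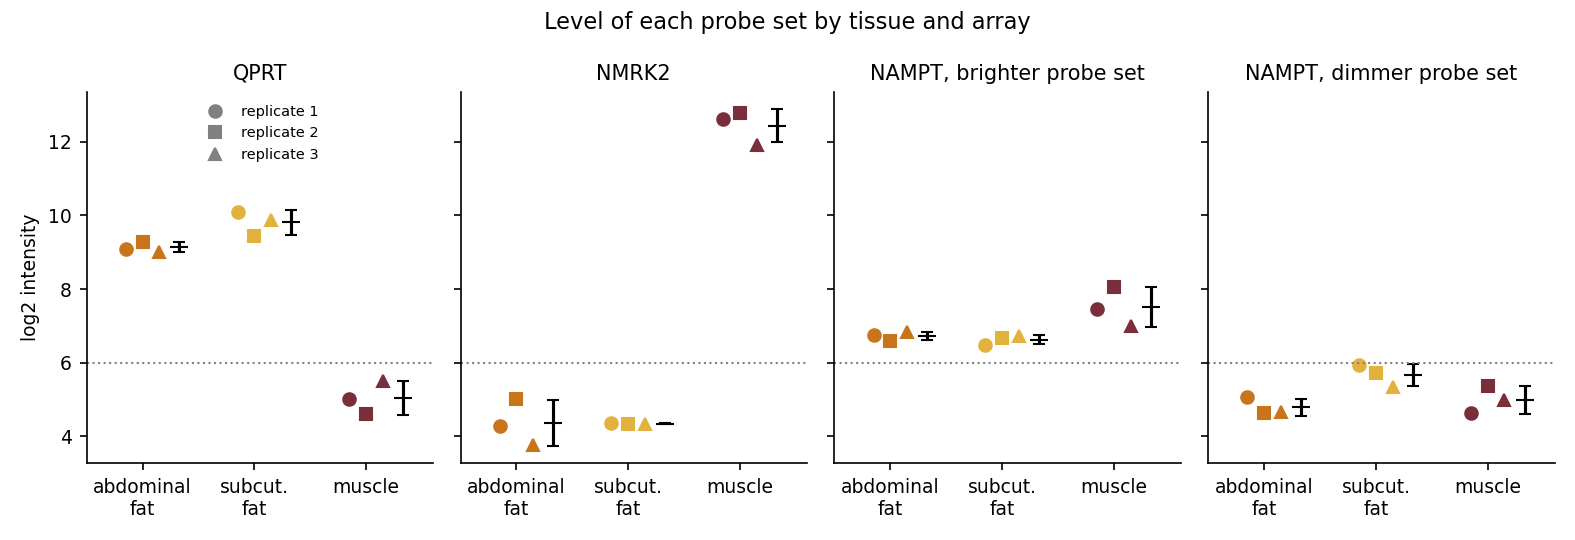
Log2 intensity (y axis) of the 4 probe sets of QPRT, NMRK2 and NAMPT by tissue, with 1 point per array shaped by replicate number. Black bars show the mean ± SD of 3 arrays, and the dotted line marks 6, under which values are near background. QPRT is high in both fat depots, NMRK2 is high in muscle alone, and the 2 NAMPT probe sets differ in their order of tissues.

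NAMPT gave no single answer, because its 2 probe sets disagreed. The brighter one read 6.74, 6.60 and 6.84 in abdominal fat, 6.49, 6.66 and 6.72 in subcutaneous fat, and 7.45, 8.07 and 7.0 in muscle. Its fat arrays all lay under its muscle arrays, although abdominal replicate 3 (6.84) and muscle replicate 3 (7.0) were close. The means were 6.73 ± 0.12, 6.62 ± 0.12 and 7.51 ± 0.54 in abdominal fat, subcutaneous fat and muscle (SD, n = 3 each), and adipose tissue differed from muscle by -0.83 ± 0.20. The depots differed by 0.10 ± 0.23, with overlapping arrays.

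The dimmer NAMPT probe set read 5.06, 4.63 and 4.67 in abdominal fat, 5.93, 5.71 and 5.34 in subcutaneous fat, and 4.63, 5.38 and 4.98 in muscle. Every value was near background. Adipose tissue differed from muscle by 0.23 ± 0.19 with overlapping arrays, a sign opposite to that of the brighter probe set. Abdominal fat lay under subcutaneous fat on every array, by a log2 difference of -0.87 ± 0.22, and no fold is given where both depots are near background. Of all probe sets, 13.9% had all abdominal arrays under all subcutaneous arrays.

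The array's own poly-A controls also differed between fat and muscle, in the same direction as the brighter NAMPT probe set. These are bacterial transcripts with a poly-A tail that are commonly added to the RNA before labelling, and the labels do not say how they were used here. The mean log2 level of their 24 probe sets was 7.69, 7.37 and 7.55 on the abdominal arrays, 7.44, 7.05 and 7.29 on the subcutaneous arrays, and 8.39, 8.71 and 7.79 on the muscle arrays. All 6 fat arrays lay under all 3 muscle arrays, by a mean of 0.90 (a log2 difference of -0.90), with -1.14 to -0.68 for single control probe sets. In muscle, replicate 2 was highest and replicate 3 lowest for both NAMPT and the controls. Within fat the orders differed. Subcutaneous replicate 1 had the highest controls of its depot (7.44) and the lowest NAMPT (6.49), and in abdominal fat the controls were highest on replicate 1 (7.69) and NAMPT on replicate 3 (6.84). The hybridization controls, which are added after labelling, differed by -0.29 between fat and muscle.

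The brighter NAMPT value minus the control mean was -0.95, -0.77 and -0.71 in abdominal fat, -0.95, -0.39 and -0.57 in subcutaneous fat, and -0.94, -0.64 and -0.79 in muscle, so the tissues overlapped. With every array centred on these controls, adipose tissue differed from muscle by 0.07 for the brighter and 1.13 for the dimmer NAMPT probe set. The same centring gave 5.33 for QPRT and -7.18 for NMRK2, whose tissue order did not turn. It moved the median difference over all probe sets to 0.84, against -0.06 as deposited. This setting was chosen after the control values were seen, and which scaling is closer to RNA per cell cannot be told from these files.

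**Figure D2:**
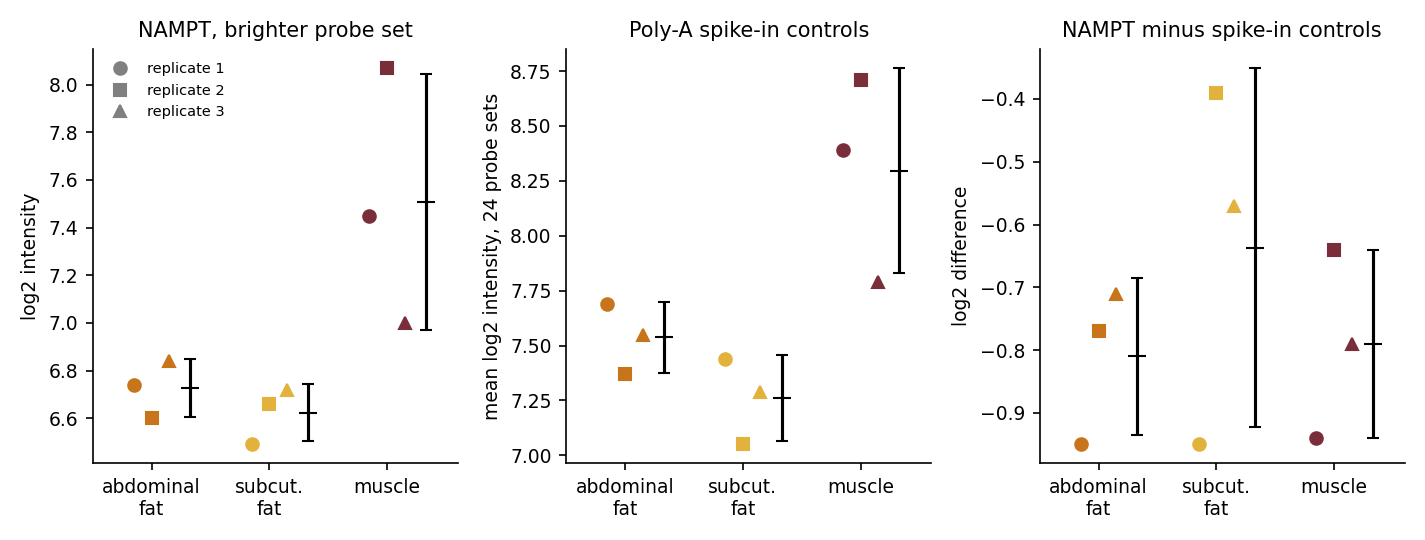
Log2 intensity of the brighter NAMPT probe set (left), mean log2 intensity of the 24 poly-A control probe sets (middle) and their difference (right) on each array, by tissue, with black bars for the mean ± SD of 3 arrays. Fat arrays lie under muscle arrays in the left and middle panels, and the tissues overlap in the right panel.

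Leukocytes also express NAMPT, and neutrophil markers were counted beside it. Of 5 measured neutrophil markers 4 were higher in adipose tissue than in muscle, where 2926 of 9155 named genes were. Among the 4 were S100A8 (3.28, adjusted p = 3.21e-05) and S100A12 (2.43 ± 0.59, adjusted p = 0.00649, with overlapping arrays). The summed intensity of the 5 neutrophil markers was 706.6 to 4039.4 in fat and 247.9 to 462.8 in muscle. Between the depots 1 of the 5 passed, where 1.5% of all named genes did. It was MMP9, a protease of neutrophil granules (2.69 ± 0.52, adjusted p = 0.0431), whose subcutaneous mean was near background. S100A8 differed by 1.55 (adjusted p = 0.0993), S100A9 by 1.59 (adjusted p = 0.104), and LTF by -0.11 (adjusted p = 0.866), and S100A12 averaged 7.72 in both depots. Their part in the NAMPT values was not tested. Lymphocyte markers gave no call in 6 measured at an adjusted p under 0.05 in limma, and 0 at an unadjusted p under 0.05. All 6 had means under 6 in every tissue, near background, so nothing is read from them.

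Of the 4 probe sets, 3 had no overlap between the fat and the muscle arrays, and 44.8% of all probe sets had none. Since the genes were chosen with this contrast known, nothing is read from that count.

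Profiles over the 9 arrays were compared after centring each gene on its own mean, and the 5 genes with the smallest root mean square distance were taken. Nearest to QPRT were RBP4, the retinol carrier of plasma (0.367 log2 units, r = 0.986), the lipid droplet protein CIDEC (0.386), TRARG1, which acts in glucose transporter traffic (0.400), the mitochondrial serine transporter SFXN1 (0.489) and DGAT2, the last step of triacylglycerol synthesis (0.494). All 5 had a lower abdominal than subcutaneous mean, by the widest margin in SFXN1, 7.83 ± 0.40 against 8.92 ± 0.15 (SD, n = 3 each), and by the narrowest in CIDEC, 12.73 ± 0.03 against 12.74 ± 0.08. Nearest to NMRK2 were sarcolipin (SLN, 0.350), muscle glycogen phosphorylase (PYGM, 0.380), KLHL41, a sarcomere-associated protein (0.382), PPP1R27 (0.385) and the muscle ankyrin repeat protein ANKRD1 (0.390), with r of 0.995 to 0.996. Nearest to the brighter NAMPT probe set were GDF7 (0.111), ECHDC3 (0.114), OGDHL (0.124), PTPRN (0.127) and BNIPL (0.137). All but GDF7 of these had means under 6 in every tissue. The arrays share tissue and scaling, so such likeness is a description of 9 points in 3 tissues.

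The other genes of NAD metabolism were read from lists of its routes, with the probe set of highest mean standing for each gene and limma as the test. Of 73 listed genes 42 were measured. In adipose tissue 16 were higher and 15 lower than in muscle at an adjusted p under 0.05, 11 did not pass, and the median difference was 0.05. Over all 9155 named genes, 61.4% passed, 2926 higher and 2699 lower, with a median of -0.02. A nearly even split between the directions was therefore the background too. Of the 31 calls, 27 were kept with each array left out in turn, and AADAT, NADK2, SIRT6 and ART4 lost theirs without at least 6 of the 9 arrays. With intensities floored at 64, 6 of the 31 calls were lost, those of ACMSD, NUDT13, NADK2, SIRT6, PARP8 and ART4. The poly-A controls and the RNA integrity ratios above moved with the same contrast. With arrays centred on the poly-A controls 28 NAD genes were higher and 5 lower, namely NT5C2, NNT, SLC29A2, SIRT5 and ART3. Of all 24016 probe sets, 16629 were higher and 1073 lower with that centring. The excess of higher genes was therefore the background too.

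Upstream of QPRT the tryptophan route was only partly measured, with 7 of 11 listed genes. Of these 7 genes 1 was higher and 2 lower in adipose tissue, where 61.4% of all named genes passed in either direction. ACMSD, which diverts the precursor of quinolinate away from NAD, was higher (1.79 ± 0.26, adjusted p = 0.000268), with means of 5.57, 5.00 and 3.49 in abdominal fat, subcutaneous fat and muscle, all near background. With intensities floored at 64, a log2 value of 6, its difference was 0. The kynurenine aminotransferase KYAT3, which diverts kynurenine to kynurenate, was lower (-0.77 ± 0.19, adjusted p = 0.00709). AADAT, another enzyme with that activity, was lower by a log2 difference of -0.31 (adjusted p = 0.0382). The dioxygenase IDO1, which opens the route outside the liver, differed by 0.30 ± 0.29 (adjusted p = 0.402). TDO2, KMO and KYNU had means between 2.27 and 2.43 in every tissue, near background, so nothing is read from them. HAAO, whose product leads to quinolinate, had no probe set with 1 symbol.

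In the route from nicotinic acid, NAPRT, the phosphoribosyltransferase that starts it and a counterpart of QPRT, was higher in adipose tissue (1.22 ± 0.15, adjusted p = 9.2e-05). Its means were 8.09 in abdominal fat and 7.97 in subcutaneous fat, against 6.81 in muscle, and no fat array overlapped a muscle array. NMNAT1, the nuclear adenylyl transferase on which all routes converge, was lower (-0.69 ± 0.13, adjusted p = 0.00109), at 8.80 in abdominal fat and 8.71 in subcutaneous fat, against 9.45 in muscle. With arrays centred on the poly-A controls NMNAT1 differed by 0.21 (adjusted p = 0.47). NADSYN1, which amidates nicotinic acid adenine dinucleotide to NAD, differed by 0.19 ± 0.13 (adjusted p = 0.237). The paralog NMRK1 and the adenylyl transferases NMNAT2 and NMNAT3 were not measured by a probe set with 1 symbol.

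Salvage and breakdown genes were 3 higher and 3 lower of 7, where 61.4% of all named genes passed in either direction. The purine nucleoside phosphorylase PNP, which also splits nicotinamide riboside, was higher (1.76 ± 0.13, adjusted p = 4.24e-06), as were NT5E, the surface nucleotidase that forms nucleosides outside the cell (1.71 ± 0.16, adjusted p = 1.21e-05), and the aldehyde oxidase AOX1, which oxidises methylated nicotinamide (1.87 ± 0.28, adjusted p = 0.000326). The cytosolic nucleotidase NT5C2 was lower (-1.74 ± 0.26, adjusted p = 0.000351), as were the NADH diphosphatases NUDT12 (-1.23 ± 0.18, adjusted p = 0.00034) and NUDT13 (-1.26 ± 0.20, adjusted p = 0.00043). NUDT12 and NUDT13 had fat means under 6, so their sizes are not exact. The NAD hydrolase CD38 differed by -0.10 ± 0.10 (adjusted p = 0.41) and was near background in every tissue. NNMT was not measured by a probe set with 1 symbol.

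For PRPP, the cosubstrate that QPRT, NAPRT and NAMPT share, only the regulatory protein PRPSAP2 was measured. It was higher (0.98 ± 0.12, adjusted p = 0.00011), while its other probe set differed by -0.36 (adjusted p = 0.13).

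In the NADP and repair list 1 gene was higher and 2 lower of 4, where 61.4% of all named genes passed in either direction. The mitochondrial transhydrogenase NNT was lower in adipose tissue (-2.66 ± 0.17, adjusted p = 1.17e-06), with 8.25 in abdominal fat and 8.07 in subcutaneous fat, against 10.82 in muscle, and its other probe set was lower as well (-1.91). Cytosolic NAD kinase, NADK, was higher (1.27 ± 0.13, adjusted p = 2.59e-05), but its dimmer probe set, with a mean of 4.82, was lower (-0.42, adjusted p = 0.0053). NADK was the only gene among 17 with several probe sets that was called in both directions. Mitochondrial NADK2 was lower by a log2 difference of -0.43 (adjusted p = 0.0331).

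Transport genes were 1 higher and 1 lower of 4, where 61.4% of all named genes passed in either direction. The equilibrative nucleoside transporters, which can carry nicotinamide riboside, went opposite ways. SLC29A1 was higher (1.5 ± 0.14, adjusted p = 1.45e-05), with 10.26, 10.25 and 8.76 in abdominal fat, subcutaneous fat and muscle. SLC29A2 was lower (-2.82 ± 0.21, adjusted p = 3.1e-06), with 5.21, 5.34 and 8.10, so that its fat values were near background. The mitochondrial NAD carrier SLC25A51 differed by 0.12 ± 0.17 (adjusted p = 0.565).

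In the lists of NAD consumers 8 genes were higher and 6 lower of 16, where 2926 of 9155 named genes were higher and 2699 lower. Of 6 measured sirtuins 2 were higher and 4 lower. The mitochondrial SIRT5 (-1.67 ± 0.11, adjusted p = 1.46e-06) and SIRT3 (-1.35 ± 0.19, adjusted p = 0.000183) were lower, as were the mainly cytosolic SIRT2 (-0.50, adjusted p = 0.00494) and the nuclear SIRT6 (-0.30, adjusted p = 0.0428). SIRT6 was near background in every tissue, with means of 5.51, 5.61 and 5.87 in abdominal fat, subcutaneous fat and muscle. The nuclear SIRT1 (0.66 ± 0.13, adjusted p = 0.00197) and the nucleolar SIRT7 (0.72 ± 0.14, adjusted p = 0.00204) were higher. With arrays centred on the poly-A controls SIRT6 differed by 0.60 (adjusted p = 0.0491), SIRT2 by 0.40 (adjusted p = 0.186) and SIRT3 by -0.46 (adjusted p = 0.151).

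ADP-ribosyltransferases were 6 higher and 2 lower of 10, where 2926 of 9155 named genes were higher and 2699 lower. PARP12 (2.01 ± 0.13, adjusted p = 1.52e-06), PARP14 (2.01 ± 0.37, adjusted p = 0.00126) and PARP9 (1.93 ± 0.16, adjusted p = 7.93e-06), which are known as interferon-responsive, were higher in adipose tissue, with muscle means under 6. The dimmer PARP12 probe sets, with means of 4.44, 3.63 and 2.66, gave 0.64 (adjusted p = 0.0245), -0.26 (adjusted p = 0.185) and -0.01 (adjusted p = 0.934). PARP1, the main DNA-damage enzyme, was higher by 0.46 ± 0.11 (adjusted p = 0.00694), PARP16 by 0.86 and PARP8 by 1.44, the last at a level near background. ART3, a surface-anchored family member, was lower (-5.07 ± 0.33, adjusted p = 1.52e-06), with 3.99 in abdominal fat and 3.81 in subcutaneous fat, against 8.97 in muscle. Its fat values were near background, which leaves the size of the difference inexact. The dimmer ART3 probe sets were lower by less (-1.89, adjusted p = 0.00139, and -1.16, adjusted p = 0.0188).

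**Figure D3:**
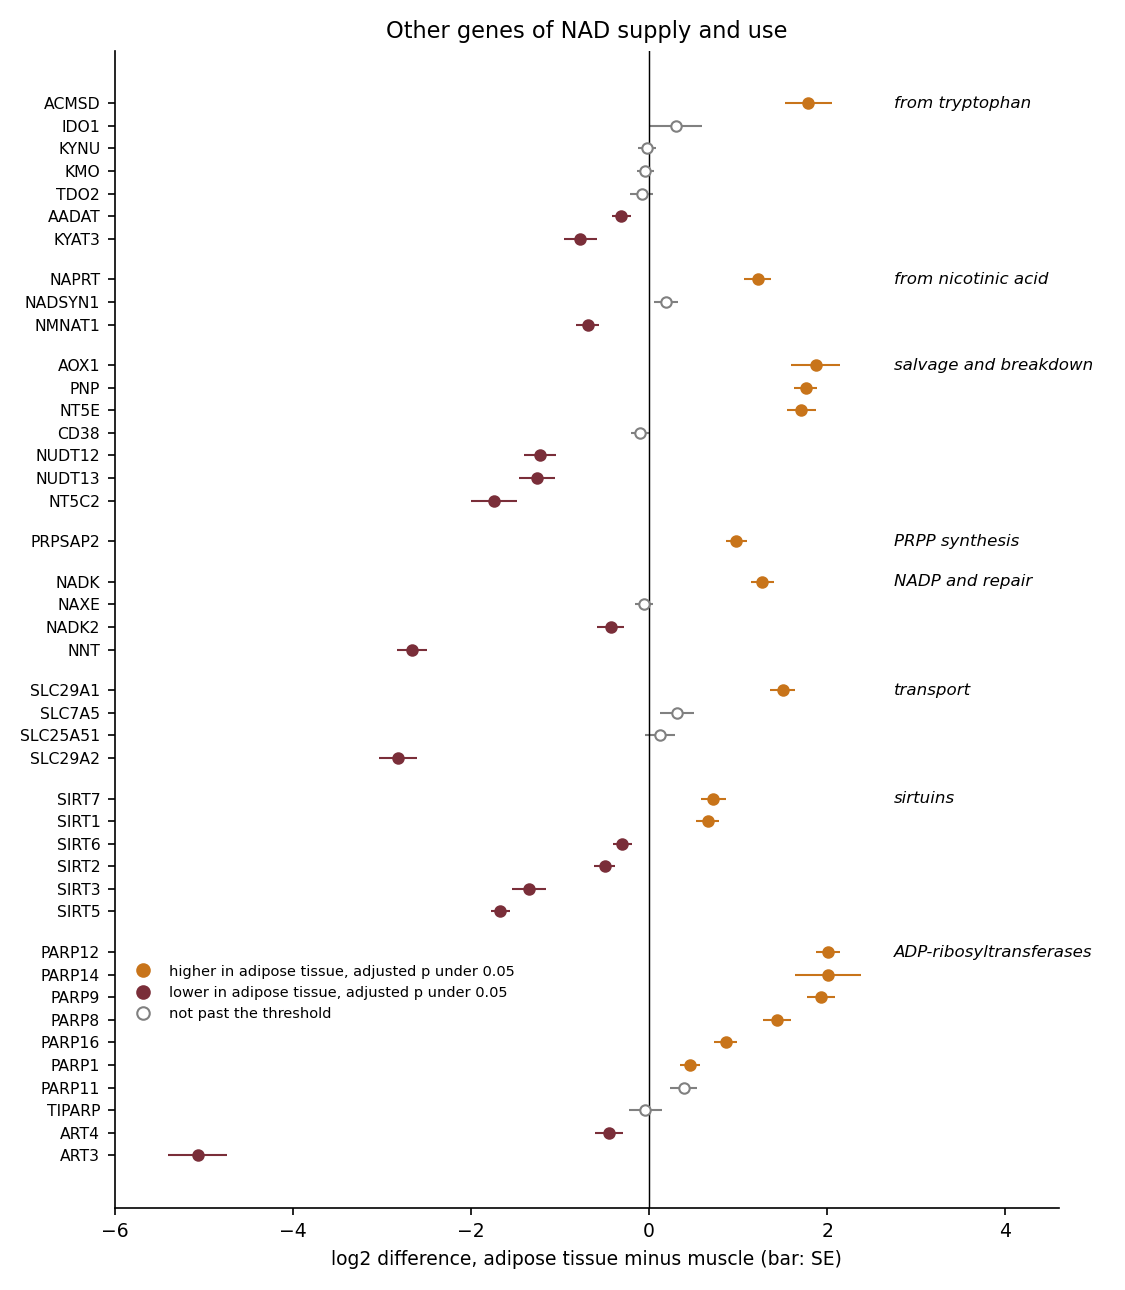
Log2 difference of adipose tissue minus muscle (x axis, bars show the SE) for the 42 other measured genes of NAD supply and use, grouped by route. Orange points are higher and dark red points lower in adipose tissue at an adjusted p under 0.05, and open points did not pass. The 16 higher and 15 lower genes are spread over the routes, with ART3 at -5.07 farthest from 0.

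Between abdominal and subcutaneous fat 0 of the 42 NAD genes passed an adjusted p of 0.05 in limma, and 7 had an unadjusted p under 0.05. Over all named genes 1.5% passed. IDO1, chosen after its values were seen, differed by 0.96 ± 0.33 (adjusted p = 0.21). Its values were 7.62, 6.35 and 6.17 in abdominal fat, against 5.75, 5.55 and 5.98 in subcutaneous fat, and without abdominal replicate 1 the difference was 0.50 (adjusted p = 0.336). A p that misses the threshold does not show that the depots are alike.

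Genes of cytosolic NADH reoxidation, where NAD is regenerated, were 0 higher and 7 lower of 10 in adipose tissue (median -1.48). Of all 9155 named genes, 2926 were higher and 2699 lower. The members named here were chosen after their values were seen. GOT1 (-2.33 ± 0.13, adjusted p = 6.07e-07) and the aspartate carrier SLC25A12 (-2.41 ± 0.17, adjusted p = 2.67e-06), both of the malate-aspartate shuttle, were lower, while GPD1 of the glycerol phosphate shuttle differed by 0.20 ± 0.13 (adjusted p = 0.227). LDHA was lower by its brightest probe set (-1.96), and another of its probe sets was higher (0.90, adjusted p = 0.000722).

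NMRK2 was also read beside genes of the β1 integrin and laminin complex to which it was first linked. Of 6 measured, 5 were higher in adipose tissue and 0 lower by the brightest probe set (median 0.90). Of all 9155 named genes, 2926 were higher and 2699 lower. β1 integrin, ITGB1, was higher by 1.08 ± 0.13 (adjusted p = 7.04e-05), the laminin chains LAMC1 by 2.13 and LAMB2 by 1.57, and the integrin-linked kinase ILK by 0.72. The dimmest LAMC1 probe set was lower (-0.53, adjusted p = 0.0259), and all its others were higher. The muscle α chain ITGA7 differed by -0.31 ± 0.21 (adjusted p = 0.242), and its dimmer probe sets were lower (-0.50, adjusted p = 0.00548, and -0.61, adjusted p = 0.00761). Dystroglycan, DAG1, was higher by 0.67 (adjusted p = 0.0459), a call lost in 6 of the 9 fits that left out 1 array. Its dimmer probe set was lower (-0.72, adjusted p = 0.00113). With the mean of its probe sets DAG1 differed by -0.03.

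Of 9 measured regulators linked in other species to NMRK2 or NAMPT, 3 were higher and 4 lower in adipose tissue. Of all 9155 named genes, 2926 were higher and 2699 lower, so nothing is read from that count. The coactivator PPARGC1A (-2.98 ± 0.31, adjusted p = 3.24e-05), serum response factor SRF (-2.14 ± 0.14, adjusted p = 1.42e-06), PPARA (-1.71 ± 0.34, adjusted p = 0.00212) and the myogenic factor MYOD1 (-1.03 ± 0.14, adjusted p = 0.000172) were lower, with fat means under 6 in each case. The PPARA and MYOD1 calls were lost with intensities floored at 64 (-0.47, adjusted p = 0.424, and -0.36, adjusted p = 0.0542) and with poly-A centring (-0.81, adjusted p = 0.0551, and -0.13, adjusted p = 0.655). The hypoxia factor HIF1A (1.51 ± 0.18, adjusted p = 6.69e-05), the NF-κB subunit NFKB1 (0.84 ± 0.14, adjusted p = 0.000639) and PPARD (0.52, adjusted p = 0.0392) were higher. The PPARD call was lost in 6 of the 9 fits that left out 1 array. It was also lost with the floor (adjusted p = 0.117) and with quantile normalization (0.31, adjusted p = 0.159).

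**Figure D4:**
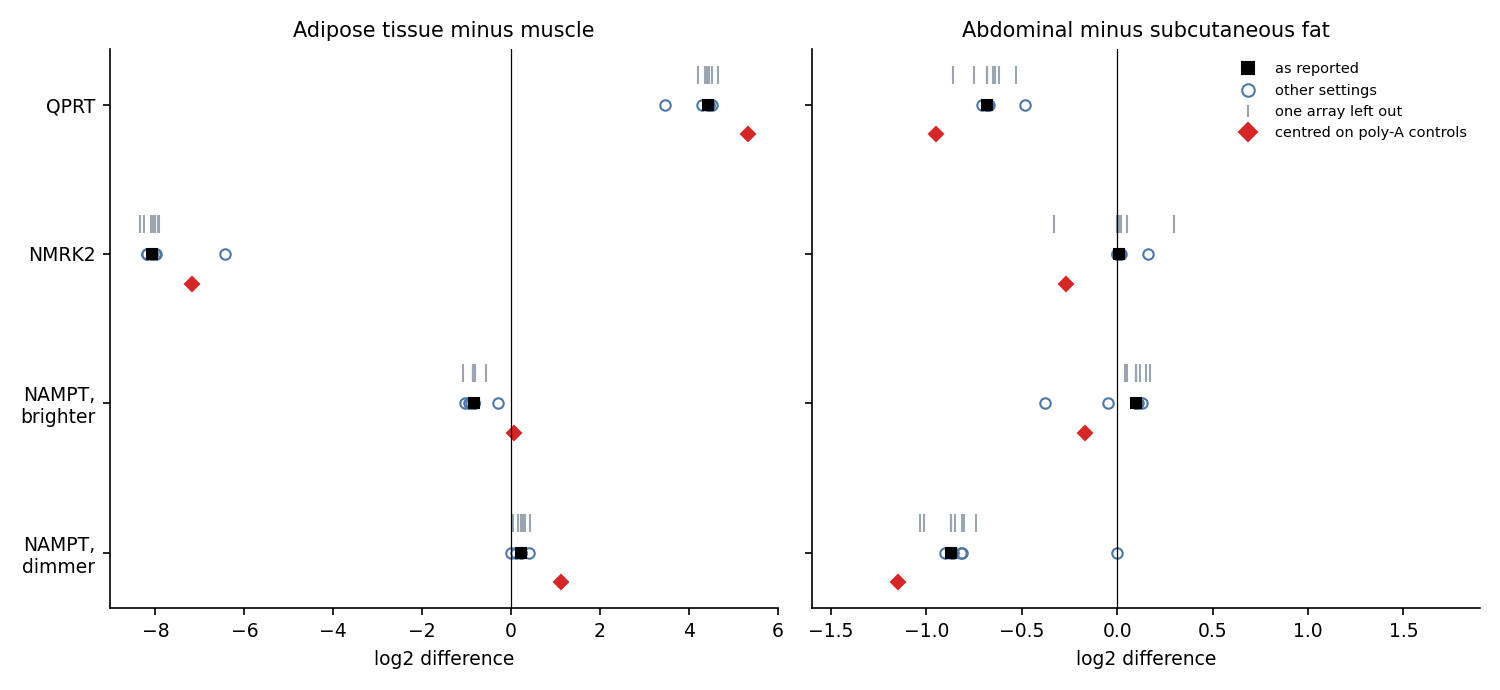
Log2 difference (x axis) of each probe set of QPRT, NMRK2 and NAMPT for adipose tissue minus muscle (left) and abdominal minus subcutaneous fat (right) under each processing alternative. Black squares are the reported values, ticks leave out 1 array each, circles are the other settings and red diamonds centre the arrays on the poly-A controls. QPRT and NMRK2 stay on their side of 0 on the left, and the brighter NAMPT probe set reaches 0.07.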

How the data were processed

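The table deposited by the authors holds linear intensities, 1 for each probe set on each array. RMA is named per the submitters' processing notes, without a version; its settings were not found in these sources. The plan foresaw the log2 of deposited intensities, and no further normalization or filter was applied. Of 24128 probe sets, 112 are Affymetrix controls and stayed out of the fit, and 24016 were tested.

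Names came from the array annotation through the reference gene table of the ARS-UCD2.0 assembly: 13292 probe sets had 1 symbol, 86 several and 10638 none. No coordinates were used. With limma 3.58.1 in R 4.3.3, 1 mean per tissue was estimated from the 9 arrays together (6 residual and 3.752 prior degrees of freedom). Compared were the average of the depots minus muscle, each depot minus muscle, and abdominal minus subcutaneous fat. Tests were two-sided, with Benjamini-Hochberg adjustment over the 24016 probe sets and a threshold of 0.05. Both depot contrasts with muscle share the muscle arrays. The fit was tested on simulated data. Tables were made with pandas 2.3.3 and numpy 2.4.6 under Python 3.11.15, and figures with matplotlib 3.10.9.

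The members, gene lists and tests were chosen with earlier results of these data known. Named NAD genes were those of the lists that passed, largest first, with 9 further genes whatever their result. The array number limits the precision. Alternatives covered the prior variance, dim probe sets, a floor of 64, scaling, array weights, a block for the leading title number, a fit on fewer tissues, the probe set per gene, and omission of each array. Centring on poly-A controls was added after the data were seen.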

Additional observations from a re-analysis of the deposited data

How the results depend on the processing

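QPRT and NMRK2 kept their direction between adipose tissue and muscle under every alternative run. With intensities floored at 64 their differences were 3.47 and -6.44, and with arrays centred on the poly-A controls 5.33 and -7.18. For the brighter NAMPT probe set that difference ranged from -1.09 to -0.55 with 1 array left out. It was -0.30 with the mean of both probe sets and 0.07 with poly-A centring, and the dimmer probe set then gave 1.13. Between the depots the brighter NAMPT probe set gave -0.17 with poly-A centring, -0.38 with the mean of both probe sets and -0.05 with the replicate block, NMRK2 gave -0.27 with poly-A centring and -0.33 to 0.30 with 1 array left out, and the dimmer NAMPT probe set gave 0 with the floor. Near background the floor removes the difference by construction; the other causes were not tested.

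Calls between adipose tissue and muscle numbered 12628 as reported and 7466 with the floor. For abdominal fat against muscle the floor gave 6750, for subcutaneous fat against muscle 6796, and poly-A centring gave 18175 for subcutaneous fat against muscle. For adipose tissue against muscle the share of calls that were higher was 49.8% as reported, 39.2% with arrays centred on their medians and 93.9% with poly-A centring. The depot comparison had 314 calls as reported, 1034 with array weights, 170 with the floor, 140 with poly-A centring, 118 with the replicate block and 57 to 491 with 1 array left out. NAD genes higher and lower in adipose tissue numbered 28 and 5 with poly-A centring. With that centring NMNAT1 differed by 0.21, CD38 by 0.80, KYAT3 by 0.13, AADAT by 0.59, NADK2 by 0.47, SIRT2 by 0.40, SIRT6 by 0.60 and ART4 by 0.45. NADSYN1 gave -0.02 and DAG1 -0.03 with the mean of all probe sets, and NADSYN1 gave -0.03 with quantile normalization.

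The reported fit does not pair arrays by the leading title number, and the labels do not say whether that number marks an animal. Between tissues, deviations of arrays with the same number correlated by 0.043 to 0.362, and those with different numbers by -0.324 to 0.17. Muscle replicate 3 correlated best with abdominal replicate 3 (0.17), but no abdominal array has its number. With subcutaneous replicate 3, which has its number, it correlated by 0.09. With the leading title number as a replicate block 17 NAD genes were higher and 12 lower. A filter on dim probe sets kept 12698 and left no value for the dimmer NAMPT probe set, and a fit on only the tissues compared is the same fit for adipose tissue against muscle.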
